A study of Mus musculus with 9 samples.

Results

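The genes described here encode Apc and its partners in the beta-catenin destruction complex. They are 10 of the 21253 genes counted in 9 RNA-seq samples of mouse AKP tumour organoids: Apc, Apc2, Axin1, Amer1, Gsk3a, Gsk3b, Csnk1a1, Ctnnb1, Btrc and Tnks. They were picked by name, from the role of their proteins, and found in the count table by matching its Ensembl IDs to gene symbols in GENCODE M21. All 10 were in the table, and 9 passed the filter on low counts; Apc2 did not.

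Organoids are small epithelial structures grown in a gel. The labels call these tumour organoids AKP, and in this line Apc is switched off by a short hairpin RNA (shAPC in the titles) that is made only while doxycycline is present. The 3 control samples stayed in doxycycline (Apc off), 3 samples were taken 2 days after doxycycline was removed, and 3 were taken 7 days after removal (Apc restored in both). All 9 samples share the AKP background and the hairpin, which lowers Apc RNA and does not delete the gene. The question is how RNA levels differ after each length of Apc restoration. The labels call the replicates technical and name no separate animals or lines, so a p-value covers no more than the spread among these samples, which may be technical. Doxycycline withdrawal, Apc restoration and time in culture cannot be told apart in this design.

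The destruction complex keeps beta-catenin, the product of Ctnnb1, low when no Wnt signal is present. Apc, Axin and Amer1 act as scaffolds that hold beta-catenin next to its kinases: casein kinase 1 alpha (Csnk1a1) phosphorylates it first, glycogen synthase kinase 3 (Gsk3a and Gsk3b) adds further phosphates, and the F-box protein beta-TrCP (Btrc) then recognises the marked protein for ubiquitination and breakdown. Tankyrase (Tnks) modifies Axin and so leads to its removal. In the intestine this complex restrains the Wnt programme of crypt stem and progenitor cells, and truncation or loss of Apc is the commonest early change in colorectal tumours.

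The stretch of beta-catenin that the kinases and beta-TrCP act on is short, and it is shown because 4 of the members meet there. It lies in exon 3 of 15 of Ctnnb1, at GRCm38 chr9:120950593-120950652 on the plus strand, and covers codons 29 to 48 of 781. The same stretch of Jup, which encodes the related junction protein plakoglobin, lies in exon 2 of 14 at chr11:100386264-100386323 on the minus strand and covers codons 20 to 39 of 745. Both are written 5′ to 3′ from GENCODE M21 transcripts. Capitals mark 4 serine or threonine codons in each. In Ctnnb1 they are the kinase sites, codons 33, 37, 41 and 45. In Jup they are codons 24, 28, 32 and 36, marked by matching position only.
Ctnnb1: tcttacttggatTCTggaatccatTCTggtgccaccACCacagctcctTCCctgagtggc
Jup: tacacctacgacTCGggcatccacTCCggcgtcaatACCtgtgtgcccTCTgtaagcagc
The sequences share 34 of 60 bases. In Ctnnb1 the last capital codon is the casein kinase site, the others are glycogen synthase kinase sites, and beta-TrCP reads the motif around the first pair.

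The libraries held 24143589 to 32277040 counts, and 14925 to 15574 genes had a count in each. Levels are CPM, read counts relative to the library total, scaled with TMM factors that ran from 1.073 to 1.125 with doxycycline kept, from 1.093 to 1.117 after 2 days and from 0.785 to 0.8735 after 7 days, and a mean carries its SD over the 3 samples of a group. A change is a log2 fold change (log2FC) with its SE or 95% interval, and a gene passed the test at an edgeR adjusted p under 0.05 over the 12535 genes tested. The 8 epithelial markers checked, Epcam and keratins among them, were all present, at a summed 9715 to 12792, 14373 to 16445 and 26735 to 36437 CPM. Summed levels of 6 immune, 6 fibroblast and 5 endothelial markers were 0.23 to 1.47, 0.563 to 1.12 and 1.04 to 2.27 CPM across the samples. The immune sum was 0.23 to 0.579 CPM with doxycycline kept, 0.46 to 0.582 CPM after 2 days and 1.25 to 1.47 CPM after 7 days. Csf1r, a macrophage receptor gene, had 2, 2 and 73 counts over the samples of each group and stood at 0.956 CPM at 7 days. The other immune markers had 4, 14 and 7 (Ptprc), 6, 8 and 4 (Cd3e), 7, 7 and 4 (Cd79a), 12, 13 and 7 (Lyz2) and 2, 6 and 10 (Itgam). Among fibroblast markers Pdgfrb, a stromal receptor gene, had 1, 7 and 39 counts. Col1a2 had 49, 20 and 9, Col1a1 16, 9 and 8, and Pdgfra 19, 21 and 5. Col3a1 had 0, 3 and 0, and Dcn 0, 1 and 1. Of the endothelial markers, Tek had 96, 77 and 117 counts and Pecam1 32, 31 and 18. Cdh5 had 2, 4 and 1, Kdr 1, 0 and 0, and Emcn 0, 0 and 0. Tek was higher at 7 than at 2 days (log2FC 0.88, edgeR adjusted p = 0.0034) and did not pass against control. Of the epithelial markers, Krt8 (3824, 5358 and 11860 CPM) and Krt19 (2757, 4709 and 12220 CPM) had the largest levels. Epcam, Cdh1, Krt8, Krt18, Krt19, Vil1 and Cldn7 were higher at 7 days. The rise was small for Cdh1 (1.16-fold, edgeR adjusted p = 0.029). For Krt18 it was 1.28-fold (edgeR adjusted p = 0.031), and its 7-day samples overlapped the controls. Cdx2, at 171, 178 and 165 CPM, did not pass the test there (edgeR adjusted p = 0.46). The epithelial sum, the 7-day immune sum, Csf1r, Pdgfrb, Col1a2 and Tek moved with the groups, and their part in the results was not tested. Csf1r and Pdgfrb both lie on the plus strand of chromosome 18, at 61100598 to 61132149 and 61045150 to 61085061. Whether their rises share a source was not tested. In these bulk samples, fewer cells of a type and less RNA per cell cannot be told apart.

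The members did not all move the same way. At 2 days Apc and Ctnnb1 were higher, and the other 7 tested members did not pass the test. By 7 days Apc, Ctnnb1, Gsk3a, Gsk3b and Tnks were higher, Axin1 and Amer1 were lower, and Csnk1a1 and Btrc did not pass. The 2 of 9 at 2 days compare with 23.7% of all tested genes that passed, 13.1% higher and 10.6% lower, and the 7 of 9 at 7 days with 82.3%, 40.5% higher and 41.8% lower. Samples of the groups did not overlap for 39.3% of genes at 2 days and 82.3% at 7 days. Both shares are near those of the whole table and are no result about the members. The median log2FC of the 9 members was −0.02 at 2 days and 0.29 at 7 days, beside −0.00 and −0.03 for all genes. The 2 comparisons share their control samples.

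**Figure D1:**
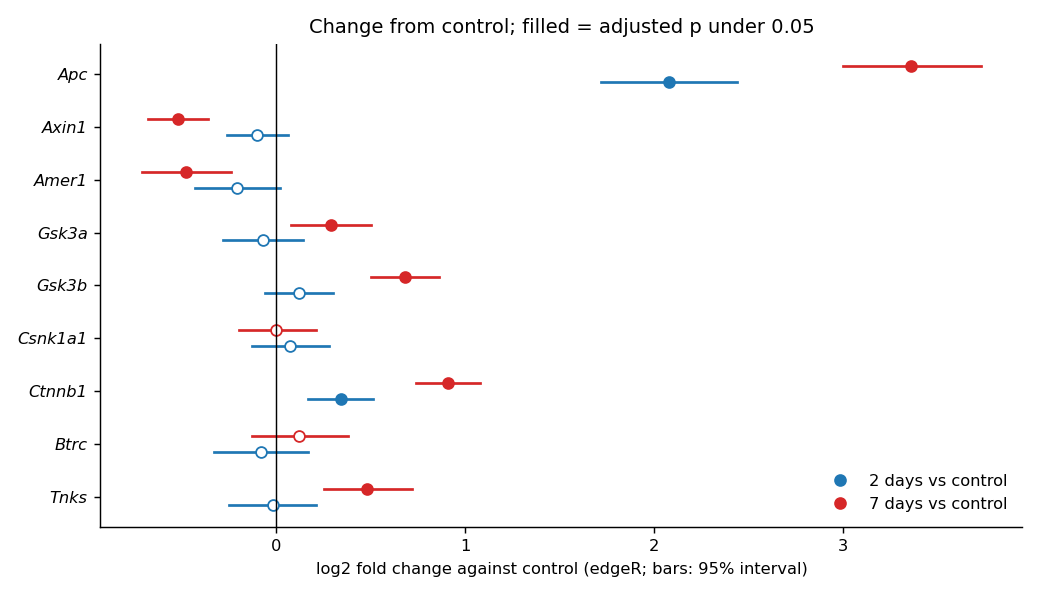
Log2 fold change against control of the 9 tested members, one line per gene, at 2 days (blue) and 7 days (red); bars are 95% intervals from edgeR, and filled points have an adjusted p under 0.05. Apc lies far to the right of the others at both times, and Axin1 and Amer1 are the filled points left of 0.

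The hairpin targets Apc (ENSMUSG00000005871, plus strand of GRCm38 chromosome 18, 34220924 to 34322552). Apc had 176, 238 and 249 counts in the controls. It had 1040, 1101 and 808 counts at 2 days and 1570, 1861 and 2534 at 7 days. Every control thus still held Apc reads, and the groups did not overlap. In CPM the means were 7.49 ± 1.17, 31.6 ± 6.66 and 76.9 ± 13.9. The log2FC was 2.08 at 2 days (95% interval 1.72 to 2.44), a 4.22-fold rise with an edgeR adjusted p of 3.1e-07. At 7 days it was 3.36 (3.00 to 3.73), a 10.3-fold rise with an edgeR adjusted p of 6.2e-11. Apc was higher at 7 than at 2 days by 2.44-fold (log2FC 1.29 ± 0.15, edgeR adjusted p = 1.3e-06). By 2 days it had covered 61.7% of its 7-day log2 change. Large as it is, the change was not the largest in the table: of the 12535 genes tested, 131 had a larger log2 rise at 2 days and 691 at 7 days.

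The genes whose course over the 9 samples was most like that of Apc were found by the root mean square difference in log2 CPM, each gene centred on its control mean, among 11383 genes with a mean of at least 1 CPM. Bmp3, a secreted BMP family protein, was nearest at 0.19 (1.91, 8.21 and 18.8 CPM in the 3 groups). Tox3, an HMG-box nuclear protein, followed at 0.25, the potassium channel gene Kcnj2 at 0.26, Spats2l at 0.28 and Vsig1 at 0.30. All 5 had lower control levels than Apc, between 0.88 CPM for Kcnj2 and 5.58 CPM for Vsig1. This ranking is a description and carries no test.

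Apc2 (ENSMUSG00000020135, chromosome 10, 80295977 to 80318263, plus strand), the Apc paralogue known mainly from the nervous system, was barely present. It had 8, 2 and 4 counts in the controls, 7, 4 and 7 at 2 days and 6, 4 and 6 at 7 days. The ratio of its level to control was 1.21 at 2 days (95% exact interval 0.571 to 2.64) and 1.32 at 7 days (0.603 to 2.92), with intervals that cover counting error only. A change within those bounds was not detectable at this depth.

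Axin1 (ENSMUSG00000024182, chromosome 17, 26138688 to 26195811, plus strand), the scaffold around which the complex is built, read 91.9, 90.1 and 85.6 CPM in control samples. The 2-day samples read 83.4, 85.5 and 80.7 CPM, and the 7-day samples 65.2, 64 and 57.4 CPM. Every 7-day sample lay below all others, and the 2-day samples lay just below the controls. At 2 days the difference did not pass the test (log2FC −0.10, 95% interval −0.26 to 0.06, edgeR adjusted p = 0.36). At 7 days Axin1 fell 1.43-fold (log2FC −0.52 ± 0.07, edgeR adjusted p = 1.1e-05).

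Amer1 (ENSMUSG00000050332, chromosome X, 95420318 to 95444872, minus strand), a membrane-bound scaffold that binds Apc, read 14.3, 15.2 and 18.4 CPM in control samples, 13.7, 15 and 12.8 CPM in 2-day samples and 11, 11.5 and 11.8 CPM in 7-day samples. The controls and the 2-day samples overlapped, and the 7-day samples lay below both. The 2-day value was log2FC −0.21 (95% interval −0.43 to 0.02, edgeR adjusted p = 0.19), and at 7 days Amer1 fell 1.39-fold (−0.48 ± 0.11, edgeR adjusted p = 0.00086). The fall from 2 to 7 days (log2FC −0.27 ± 0.11, edgeR adjusted p = 0.033) kept a similar size but missed the threshold in several alternatives. Without 2-day replicate 1 or 2 it was −0.28 and −0.22 (edgeR adjusted p = 0.065 and 0.12), and without 7-day replicate 1 or 2 it was −0.25 and −0.27 (0.077 and 0.076). DESeq2 size factors gave −0.23 (edgeR adjusted p = 0.057) and the DESeq2 Wald test −0.24 (adjusted p = 0.077). Its paralogues Amer2 and Amer3 had 3 and 0 counts over all 9 samples.

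**Figure D2:**
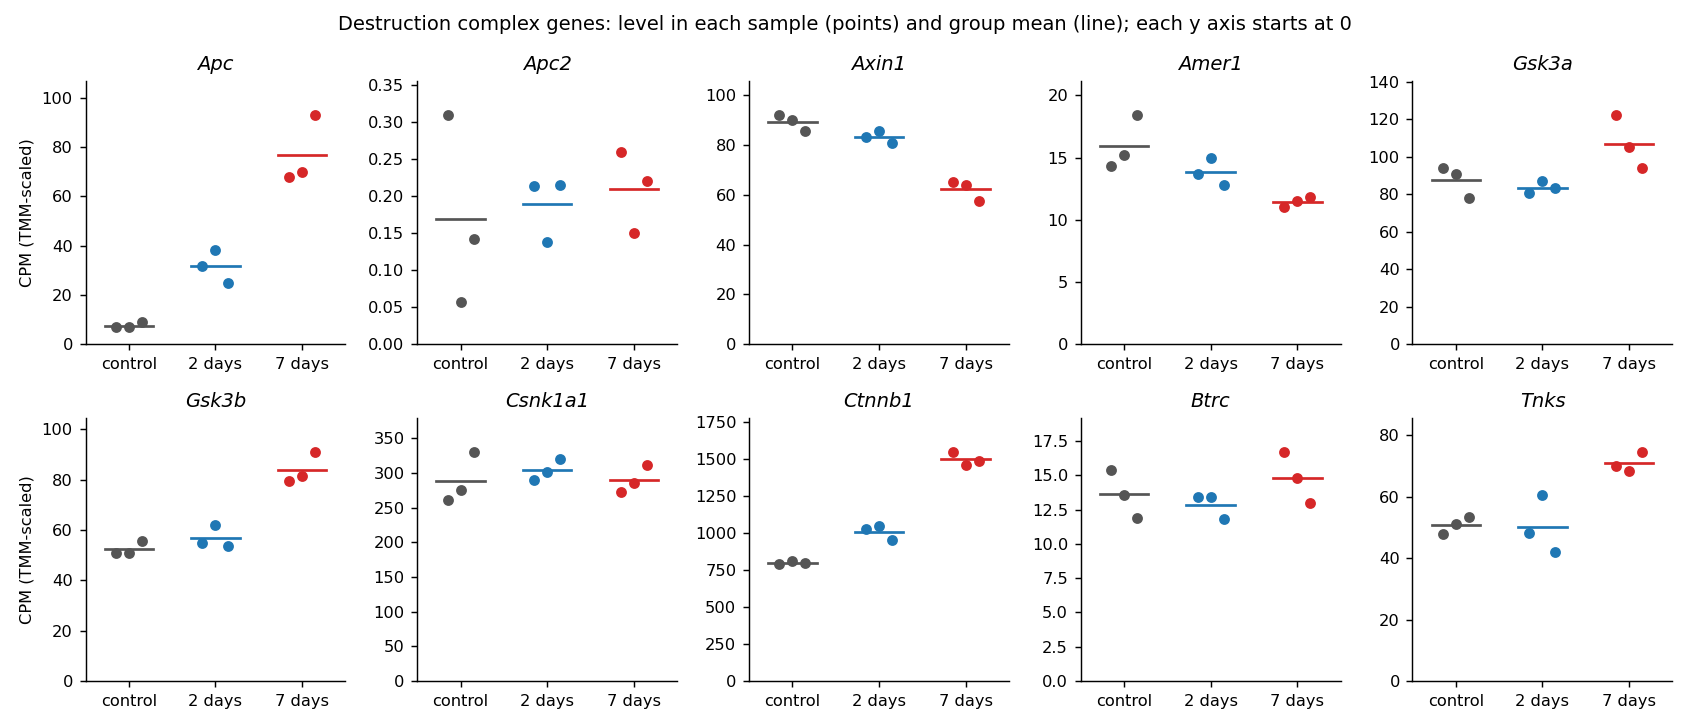
TMM-scaled CPM of each of the 10 members in each sample (points) with the group mean (line), by group (control, 2 days, 7 days); each panel has its own axis from 0. Apc and Ctnnb1 step up at each time, Axin1 and Amer1 are lowest at 7 days, and the Csnk1a1 and Btrc samples of the 3 groups overlap.

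Of the kinases, Gsk3a and Gsk3b were higher at 7 days and Csnk1a1 did not pass the test. Gsk3b (ENSMUSG00000022812, chromosome 16, 38089001 to 38246084, plus strand) gave 50.7, 50.7 and 55.5 CPM with doxycycline kept, 54.7, 62.1 and 53.5 CPM after 2 days without it and 79.5, 81.2 and 90.9 CPM after 7 days. Its 7-day samples lay above all others, while the earlier groups overlapped. At 7 days it rose 1.61-fold (log2FC 0.68 ± 0.08, edgeR adjusted p = 2.2e-06), and at 2 days the log2FC was 0.12 (95% interval −0.06 to 0.30, edgeR adjusted p = 0.35).

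Gsk3a (ENSMUSG00000057177, chromosome 7, 25228258 to 25237851, minus strand), the other glycogen synthase kinase 3 gene, read 94, 90.5 and 78.2 CPM in control samples, 80.4, 87 and 83.1 CPM in 2-day samples and 122, 105 and 93.8 CPM in 7-day samples. The lowest 7-day sample lay just under the highest control, so these groups overlapped. The 1.22-fold rise at 7 days (log2FC 0.29, 95% interval 0.08 to 0.50, edgeR adjusted p = 0.013) was lost without control replicate 3 (log2FC 0.21, edgeR adjusted p = 0.063) or 7-day replicate 1 (0.19, edgeR adjusted p = 0.076). With upper-quartile scaling it was lost too (log2FC 0.19, edgeR adjusted p = 0.076), and with library size alone the value was −0.12 (edgeR adjusted p = 0.19). Gsk3a shares 820 exon bases with an antisense gene, 9130221H12Rik, and the library kit does not mark strand, so reads of the pair cannot be told apart.

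Csnk1a1 (ENSMUSG00000024576, chromosome 18, 61555274 to 61590061, plus strand), the priming kinase, read 261, 275 and 330 CPM in control samples. The 2-day samples read 290, 301 and 320 CPM, and the 7-day samples 272, 285 and 312 CPM. All 3 groups overlapped. The log2FC was 0.07 at 2 days (95% interval −0.13 to 0.28, edgeR adjusted p = 0.63) and 0.00 at 7 days (−0.20 to 0.21, edgeR adjusted p = 0.97), so the interval at 7 days leaves room for a change of either sign up to its bounds. With library size alone in place of TMM the 7-day value was −0.40 (edgeR adjusted p = 0.0051).

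Its relatives Csnk1d and Csnk1e, which act on Dishevelled and other Wnt relay proteins, stood apart from each other. Csnk1e fell from a control mean of 54.9 ± 2.76 CPM to 38.6 ± 2.41 at 2 days (1.42-fold, edgeR adjusted p = 0.0011), and at 7 days it was at 24.8 ± 3.27 (2.21-fold, edgeR adjusted p = 3e-08). Csnk1d had edgeR adjusted p-values of 0.52 and 0.59, and with library size alone its 7-day log2FC was −0.45 (edgeR adjusted p = 1.4e-05).

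Ctnnb1 (ENSMUSG00000006932, chromosome 9, 120929216 to 120960507, plus strand), which encodes the substrate, was the most abundant member. It gave 791, 812 and 795 CPM with doxycycline kept, 1025, 1050 and 953 CPM after 2 days without it and 1548, 1458 and 1489 CPM after 7 days. Replicates lay close together, and each group lay wholly above the one before it. Ctnnb1 RNA rose 1.26-fold at 2 days (log2FC 0.34, 95% interval 0.17 to 0.51, edgeR adjusted p = 0.0062) and 1.87-fold at 7 days (0.91, 0.74 to 1.08, edgeR adjusted p = 4.3e-08). By 2 days it had covered 37.1% of its 7-day log2 change. The gene shares 759 exon bases with Ulk4 on the other strand, which stood at only 1.63 ± 0.283, 1.25 ± 0.367 and 1.97 ± 0.68 CPM. Beta-catenin protein, which the complex controls, was not measured here.

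Jup, whose matching stretch is shown beside that of Ctnnb1, was singled out after its values had been seen, since its 7-day change resembled that of Ctnnb1. It read 399, 385 and 297 CPM in control samples, 403, 449 and 359 CPM in 2-day samples and 876, 709 and 637 CPM in 7-day samples. The 7-day samples lay above all others, and the rise there was 2.06-fold (log2FC 1.04 ± 0.13, edgeR adjusted p = 2.8e-06). The 2-day value was 0.16 (edgeR adjusted p = 0.41).

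Btrc (ENSMUSG00000025217, chromosome 19, 45363734 to 45530013, plus strand), the F-box subunit that reads phosphorylated beta-catenin, gave 15.4, 13.6 and 11.9 CPM with doxycycline kept, 13.4, 13.4 and 11.8 CPM after 2 days without it and 16.7, 14.8 and 13 CPM after 7 days. All 3 groups overlapped. The log2FC was −0.08 at 2 days (95% interval −0.33 to 0.17, edgeR adjusted p = 0.68) and 0.12 at 7 days (−0.13 to 0.38, edgeR adjusted p = 0.34). Btrc shares 235 exon bases with a pseudogene on the other strand, Gm6807, and reads there cannot be told apart. Its paralogue Fbxw11, the other beta-TrCP gene, had a mean of 67.8 ± 0.461 CPM in control samples and 73.7 ± 3.67 CPM in 2-day samples. Fbxw11 rose 1.34-fold at 7 days, to 91.1 ± 3.29 CPM (edgeR adjusted p = 4.8e-05), and with library size alone its log2FC there was 0.021 (edgeR adjusted p = 0.77).

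Tnks (ENSMUSG00000031529, chromosome 8, 34826460 to 34965690, minus strand), which encodes tankyrase 1, read 48, 51 and 53.5 CPM in control samples, 48.2, 60.5 and 42 CPM in 2-day samples and 70.2, 68.3 and 74.6 CPM in 7-day samples. The 2-day samples were the most scattered and spanned the controls, and the 7-day samples lay above both. At 7 days Tnks rose 1.4-fold (log2FC 0.48 ± 0.11, edgeR adjusted p = 0.0008), and the 2-day value was −0.02 (95% interval −0.25 to 0.21, edgeR adjusted p = 0.92). With library size alone the 7-day value was 0.081 (edgeR adjusted p = 0.54). Tnks shares 635 exon bases with a noncoding gene on the other strand, Gm9939, and reads there cannot be told apart.

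Tnks2, which encodes tankyrase 2, moved the other way at 7 days. It gave 190, 200 and 223 CPM with doxycycline kept, 185, 190 and 176 CPM after 2 days without it and 117, 129 and 143 CPM after 7 days. The fall at 7 days was 1.57-fold (log2FC −0.65 ± 0.09, edgeR adjusted p = 6e-06).

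Between 2 and 7 days the same 7 members differed as between control and 7 days, in the same directions, beside 79.1% of all genes that passed, 39.2% higher and 39.9% lower, and 79.3% whose samples did not overlap. Besides Apc and Amer1 above, Ctnnb1 rose 1.48-fold over this interval (edgeR adjusted p = 9.1e-06), Gsk3b 1.48-fold (1.9e-05), Tnks 1.42-fold (0.00061) and Gsk3a 1.28-fold (0.0035). Axin1 fell 1.34-fold (edgeR adjusted p = 0.0001). With library size alone, 4 of the 9 members passed: Apc higher and Amer1, Axin1 and Csnk1a1 lower.

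Ratios of the counts of 2 genes within the same library do not depend on how libraries are scaled. They are descriptions, since an exact permutation test of 3 against 3 samples cannot go below p = 0.10. Reads of Apc per read of Axin1 were 0.074, 0.0758 and 0.103 in the controls, 0.382, 0.446 and 0.307 at 2 days and 1.04, 1.09 and 1.62 at 7 days. The ratio went from far fewer Apc than Axin1 reads to slightly more, with no overlap between groups. Apc per Ctnnb1 read was 3.32-fold higher at 2 days and 5.47-fold higher at 7 days, a smaller shift than that of Apc alone, as Ctnnb1 rose too. Csnk1a1 per Ctnnb1 read went from 0.33, 0.339 and 0.415 in the controls to 0.176, 0.195 and 0.21 at 7 days, 1.86-fold lower with no overlap.

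Ratios of paralogues were read the same way. Tnks per Tnks2 read was 0.253, 0.255 and 0.24 in the controls, 0.26, 0.319 and 0.239 at 2 days and 0.598, 0.528 and 0.52 at 7 days, 2.2-fold higher at 7 days with no overlap. Axin1 per Axin2 read was 1.41, 1.26 and 1.14 in the controls, 16.4, 16.5 and 16 at 2 days and 116, 85.2 and 87 at 7 days. Axin1 thus went from about level with its paralogue in reads to nearly the sole Axin transcript. Gsk3a per Gsk3b read (1.86, 1.79 and 1.41 in the controls, 1.54, 1.3 and 1.03 at 7 days) and Btrc per Fbxw11 read (0.228, 0.199 and 0.175, then 0.177, 0.163 and 0.148) overlapped between those groups.

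**Figure D3:**
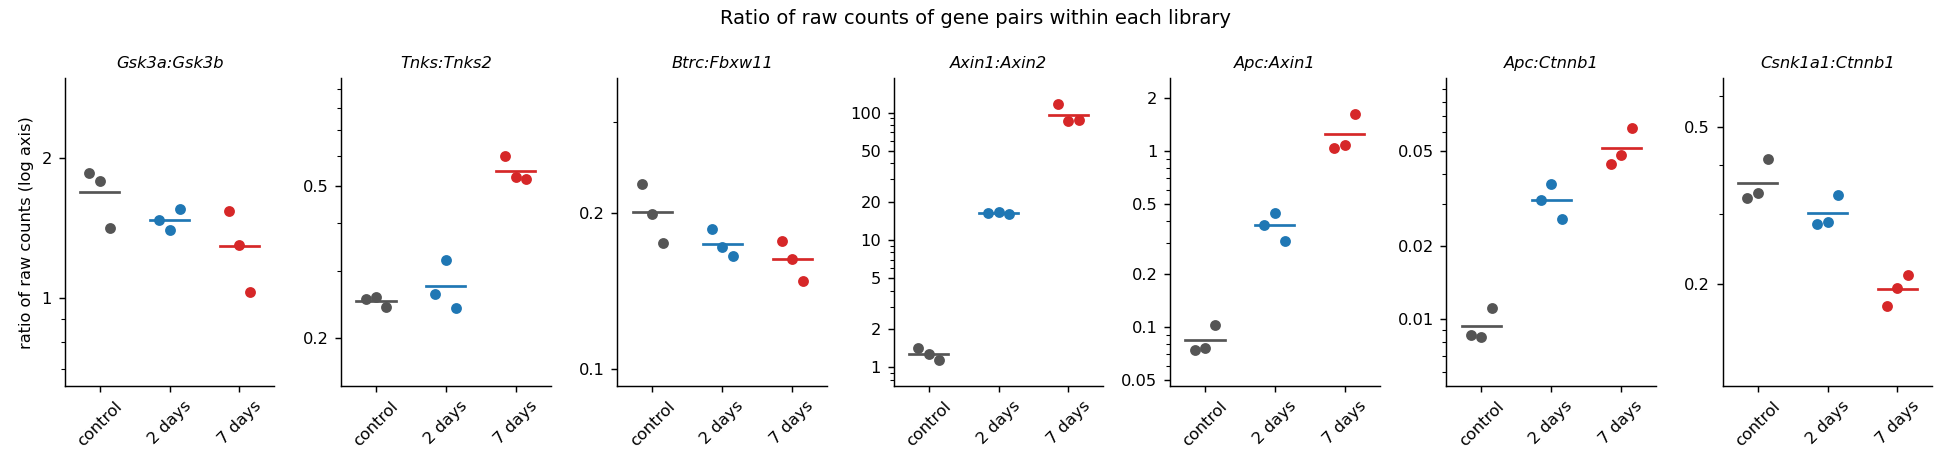
Ratio of read counts of 2 genes in the same library, on a log axis, for 7 pairs; points are samples, lines group means, and each panel has its own axis. Axin1:Axin2 and Apc:Axin1 climb at each time, Tnks:Tnks2 is higher at 7 days, Csnk1a1:Ctnnb1 is lower at 7 days, and Gsk3a:Gsk3b and Btrc:Fbxw11 overlap between groups.

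Axin1 itself did not rise: the ratio climbed with the fall of its paralogue. Axin2, a negative-feedback target of Wnt signalling whose protein can replace Axin1 in the complex, had 6285 counts over the 3 controls, 480 at 2 days and 51 at 7 days. At 2 days it fell 13.8-fold (log2FC −3.79 ± 0.10, edgeR adjusted p = 2.7e-12). The fall at 7 days was 106-fold (−6.73 ± 0.13, edgeR adjusted p = 1.5e-15), beside the 1.43-fold fall of Axin1 at 7 days.

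Levels of different genes were compared per kilobase of exon (CPM per kb, with all exons of a gene merged). In the controls Ctnnb1 led at 154 ± 2.14, followed by Gsk3a at 30.2 ± 2.86, Csnk1a1 at 27.5 ± 3.49 and Axin1 at 23.3. Gsk3a and Csnk1a1 did not differ beyond their spread. Gsk3b at 5.32, Tnks at 3.42, Amer1 at 1.88, Btrc at 0.804 and Apc at 0.465 ± 0.0726 came next, and Apc2 was last at 0.015.

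At 2 days Apc had moved past Amer1 in mean level, at 1.96 ± 0.413 CPM per kb against 1.63, a difference within the spread of Apc. At 7 days it stood at 4.77 ± 0.861 CPM per kb, level with Tnks at 4.77, and Ctnnb1 stood at 289 ± 8.76. With the length of the longest transcript instead, Csnk1a1 in the controls lay above Gsk3a (70.7 against 38.8 CPM per kb) and Btrc above Amer1 (2.88 against 1.88), so those orders depend on the length used. The tie at 7 days does too, with Apc at 6 and Tnks at 7.75 CPM per kb of longest transcript. So does the size of the 2-day gap between Apc and Amer1, which was wider by longest transcript (2.47 against 1.63).

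TMM scaling takes most genes as level, and at 7 days most genes were not. With library size alone the median log2FC of all genes at 7 days moved from −0.03 to −0.43, and the share of passing genes that were higher went from 49.2% to 34.8%. A scaling shifts every gene by the same amount, so values relative to the median of all genes hold under each by construction and are no test. Relative to that median the 7-day log2FC was 0.94 for Ctnnb1, 0.72 for Gsk3b, 0.32 for Gsk3a, 0.04 for Csnk1a1 and −0.49 for Axin1. On library size alone Apc, Ctnnb1 and Gsk3b still rose at 7 days and Axin1 and Amer1 still fell, Gsk3a and Tnks did not pass, and Csnk1a1 and Btrc fell (log2FC −0.40 and −0.28, edgeR adjusted p = 0.0051 and 0.024).

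**Figure D4:**
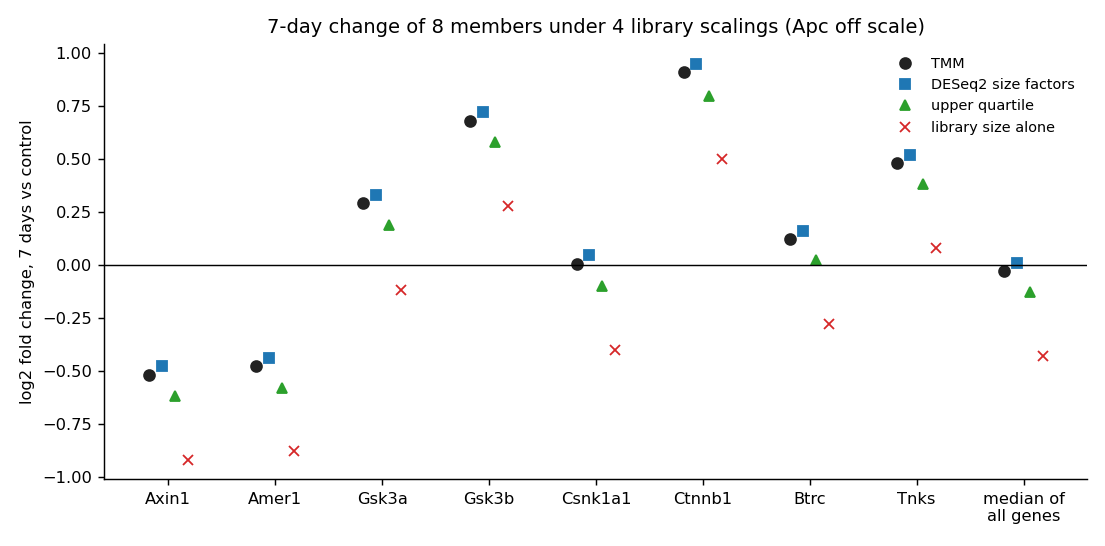
Log2 fold change at 7 days against control of 8 tested members and the median of all genes, under 4 ways of scaling the libraries; Apc lies off the scale and is not drawn. All genes shift down together with library size alone, which takes Gsk3a, Csnk1a1 and Btrc below 0 and leaves Ctnnb1, Gsk3b and Tnks above it.

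Other proteins that handle the complex were counted by role, beside the same backgrounds of 23.7% at 2 days and 82.3% at 7 days. Of 17 tested relay proteins and further scaffold and kinase genes, 3 rose and 3 fell at 2 days, and 7 rose and 6 fell at 7 days (median log2FC −0.04 and 0.16). Frat1 and Frat2, which bind Gsk3 and compete with Axin for it, rose at both times. Frat1 went from 2.9 ± 0.201 CPM to 17.3 ± 1.75 at 7 days (5.94-fold, edgeR adjusted p = 4e-11) and Frat2 from 5.88 to 28.1 CPM (4.77-fold, edgeR adjusted p = 1.4e-11). Strap, a WD-repeat protein that binds Gsk3b, fell 2.25-fold at 7 days (edgeR adjusted p = 1.8e-09).

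Of 17 ubiquitin ligase, deubiquitinase and tankyrase partners, 1 rose and none fell at 2 days, and 4 rose and 7 fell at 7 days (median log2FC −0.08 and −0.22). The 2-day rise was that of Tbl1xr1, a corepressor subunit, from 22.2 to 28.9 CPM (1.3-fold, edgeR adjusted p = 0.0064). At 7 days Usp9x, a deubiquitinase, rose 1.9-fold (edgeR adjusted p = 1.8e-06). Siah1b, a RING ubiquitin ligase, fell 3.92-fold (edgeR adjusted p = 2.2e-10), Rbx1, the RING subunit of the beta-TrCP ligase, fell 1.6-fold (3.4e-06) and Usp7 fell 1.53-fold (1.6e-06).

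Of 14 subunits of the phosphatases PP2A and PP1, which can remove phosphates that the complex adds, 1 rose and 1 fell at 2 days, and 2 rose and 7 fell at 7 days (median log2FC −0.01 and −0.26). Ppp2r5b, a regulatory B56 subunit, rose from 18 to 37.4 CPM at 2 days (2.08-fold, edgeR adjusted p = 1.5e-06) and to 122 CPM at 7 days (6.79-fold, edgeR adjusted p = 1.6e-12). Ppp2r1b, a structural subunit, fell from 145 to 123 and then 66.5 CPM. Its 2-day fall (log2FC −0.24, 1.18-fold, edgeR adjusted p = 0.02) missed the threshold at nearly the same size without control replicate 1 (−0.24, adjusted p = 0.057), control replicate 2 (−0.24, 0.089) or 2-day replicate 3 (−0.22, 0.066). Its 7-day fall was 2.18-fold (edgeR adjusted p = 7.9e-10). Ppp2r2d fell 1.95-fold (edgeR adjusted p = 3.1e-08) and Ppp2r2a 1.56-fold (3.6e-07) at 7 days.

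Of 12 tested junction and nuclear partners of beta-catenin, 2 rose and 2 fell at 2 days, and 8 rose and 3 fell at 7 days (median log2FC 0.14 and 0.45). Tcf7l2, the main TCF partner of beta-catenin in intestinal epithelium, went from 13.2 to 20.4 CPM at 2 days (1.54-fold, edgeR adjusted p = 7e-05) and 44.5 CPM at 7 days (3.37-fold, edgeR adjusted p = 4e-11). Tcf7, another TCF, fell from 73.1 to 14 and then 2.93 CPM (5.24-fold and 25.1-fold, edgeR adjusted p = 1.2e-10 and 5.9e-15). Ctnnbip1, an inhibitor of the beta-catenin and TCF contact, rose 3.27-fold at 7 days (edgeR adjusted p = 2.9e-11), and Cdh17, an intestinal cadherin, rose 2.99-fold (7.6e-11).

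As a readout of the pathway below the complex, 10 of 12 Wnt target genes could be tested. At 2 days 9 fell and 1, Apcdd1 (named after its value was seen), rose, and at 7 days all 10 fell (median log2FC −1.98 and −3.30). Tnfrsf19, a TNF receptor family gene, went from 111 to 9.05 and 0.0514 CPM and Sp5, a zinc finger factor, from 25.7 to 2.51 and 0.373 CPM. Ascl2, a stem cell transcription factor, went from 18.1 to 0.95 CPM at 2 days and had a single count at 7 days. These targets were known from earlier results of these data to fall and are not independent evidence.

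**Figure D5:**
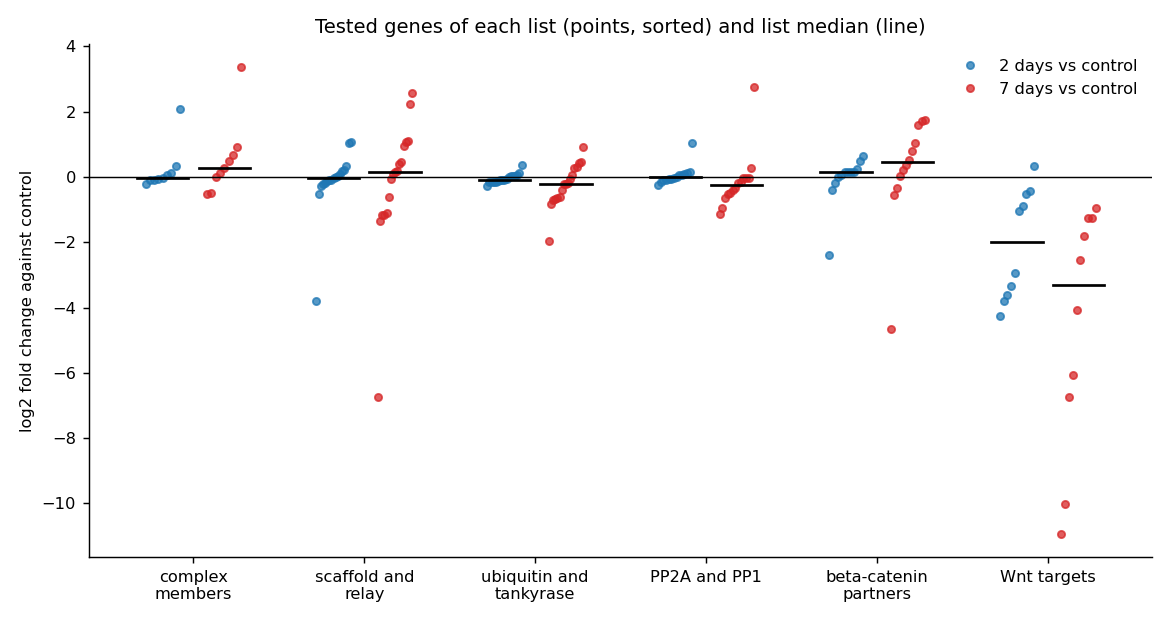
Log2 fold change against control of every tested gene in the 5 gene lists by role and in the members, at 2 and 7 days; points are genes sorted by value, and black lines are list medians. Fitted values of Ascl2 and Tnfrsf19 at 7 days rest on 1 and 4 counts and depend on the prior count. At 2 days 1 Wnt target lies above 0 and 9 below, and at 7 days all 10 lie below, while the other lists straddle 0.

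Trp53, which encodes the p53 tumour suppressor, was read for comparison. It was low, at 2.93, 2.79 and 1.17 CPM, and fell at 7 days (log2FC −1.33 ± 0.20, edgeR adjusted p = 1.7e-05).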

How the data were processed

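RNA was measured in 9 samples, 3 in each group, grouped by their titles. The authors deposited 1 table of raw read counts per gene. Per the submitters' processing notes, STAR 2.7.0e, featureCounts and DESeq2 were used with builds mm10 and GRCm38. The annotation release, like the strand setting, is not given in the sources used here. Per the labels' protocols, poly(A) libraries were made with a NEBNext Ultra II RNA kit, which does not mark strand, so reads of overlapping genes on opposite strands cannot be told apart.

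Of 21253 IDs, 21236 matched GENCODE M21. Counts of 12535 genes kept by filterByExpr were TMM-scaled and tested with the quasi-likelihood F test of edgeR 4.0.16 (R 4.3.3), two-sided, with all 9 samples and the group alone in 1 model (common dispersion 0.00723) and Benjamini-Hochberg adjustment over all genes at 0.05. The code was tested on simulated data. Log2 CPM for the likeness ranking used a prior count of 2. Each replicate pair differed by more than sampling noise (chi-square per degree of freedom 4.24 to 38.3). The sequences come from GENCODE M21 transcripts, read in the longest open reading frame.

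The members and gene lists were chosen with earlier results of these data known. Named genes were the 10 members, their paralogues, Trp53, the genes with the smallest p in each list (4 at 7 days and 2 at 2 days) and the 5 genes most like Apc. Some genes that the rule takes are left out of the text. Alternatives were other scalings, other filters, limma-voom 3.58.1, the DESeq2 1.42.0 Wald test, a replicate block, a fit to just the groups under comparison, transcript length and leaving out each sample.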

Additional observations from a re-analysis of the deposited data

Results flagged for a closer look

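For 7 of the 9 tested members the changes at 2 and at 7 days, measured against the same controls, differed from each other by the edgeR test of 7 against 2 days. The difference between the changes (log2FC) was 1.29 for Apc, 0.57 for Ctnnb1, 0.56 for Gsk3b, 0.50 for Tnks and 0.36 for Gsk3a, all larger at 7 days. It was −0.42 for Axin1 and −0.27 for Amer1, both lower at 7 days. Of all tested genes 79.1% differed between the times in this way. Groups of 3 samples are too small for a test of single outlying samples.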

How the results depend on the processing

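Apc and Ctnnb1 passed the test at 2 days in every alternative run, and Apc, Ctnnb1, Gsk3b, Axin1 and Amer1 did so at 7 days. With library size alone the number of members passing between 7 and 2 days was 4 in place of 7. Leaving out 1 sample gave 2 members at 2 days, 6 to 7 at 7 days and 6 to 8 between the times. It gave 809 to 1517 lower genes at 2 days in place of 1333, with 809 without control replicate 2. Some values changed sign. With library size alone the log2FC of Gsk3a, which had passed as higher at 7 days and between the times, was −0.12 and −0.064, that of Btrc −0.28 and −0.22, that of Csnk1a1 at 7 days −0.40 and that of Rbx1 at 2 days 0.0063. Upper-quartile factors gave −0.10 for Csnk1a1 at 7 days, and 0.0002 for Tnks and 0.012 for Rbx1 at 2 days. Csnk1a1 at 7 days was −0.0056 without a filter and −0.019 with only the groups compared. Leaving out 1 sample gave −0.065 to 0.11 for Csnk1a1 and −0.10 to 0.003 for Csnk1d at 7 days. At 2 days it gave −0.17 to 0.02 for Btrc, −0.17 to 0.10 for Tnks, −0.19 to 0.038 for Trp53, −0.087 to 0.16 for Usp9x and −0.064 to 0.09 for Rbx1. Apart from the scalings' own shift of all genes, the cause was not tested. Same-numbered samples of different groups correlated at −0.13 to 0.48 in their deviations from the group means, and differently numbered ones at −0.437 to 0.169. The labels state no pairing, and these correlations do not settle whether the numbers carry one. With the replicate block 2, 7 and 8 members passed, the added one being Btrc between the times (log2FC 0.20, edgeR adjusted p = 0.034). Depth limits Apc2 and Amer2, which had too few counts to test.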
